A study of Mus musculus with 24 samples.

Results

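Expression in the prefrontal cortex was compared between adult male wild-type mice that had been maternally separated and given the EC-12 supplement (the group MS_EC12) and mice with neither (the group Control, labelled as receiving no treatment). The comparison takes 12 of the 24 libraries of the series, 6 from each group, chosen by the group named in their labels. EC-12 is a preparation of heat-killed Enterococcus faecalis, a para-probiotic made from a gut bacterium, and the supplement ran for 5 weeks per the series' design text. Maternal separation (MS), in which pups are parted from the dam, is used as a stress of early life. The groups with 1 factor alone, MS and Control_EC12, each with 6 libraries, are used only to set values beside this comparison. The sources used here do not give the strain, the exact age or the separation schedule. They also do not say whether the libraries are from different animals, and p-values therefore measure only the spread between libraries, which may be technical. MS_EC12 and Control differ in rearing and in supplement at once, and the contributions of these factors cannot be told apart in the comparison itself.

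Stress early in life acts on the brain largely through glucocorticoid hormones, whose receptors are transcription factors that switch on genes such as Fkbp5 and Per1. In the cortex, neuronal activity switches on immediate early genes within minutes, and the circadian clock drives daily rhythms in some of the same genes, Per1 among them. Short-read counts of a gene can also depend on the GC content and the length of its transcripts, and libraries can differ in that dependence, so most results below are given with and without a term for GC content.

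Total counts ran from 27229269 to 36336886 in Control and from 29804781 to 39252382 in MS_EC12. Markers of cortical projection neurons were abundant in both groups, with a summed level of 5950 to 7210 CPM (counts scaled to library size) in Control and 6400 to 7930 CPM in MS_EC12. A GC slope was fitted in each library as the change of its log2 CPM, relative to the gene's mean over the 24 libraries, per 10 percentage points of transcript GC content. The 6 Control libraries had slopes from −0.153 to −0.0887. MS_EC12 replicates 1 and 2 lay below that range at −0.168 and −0.173, whereas replicates 3, 4, 5 and 6 lay far above it at 0.513, 0.308, 0.279 and 0.636. The group means differed by 0.354 (exact 2-sided permutation test, p = 0.0606, n = 6 and 6, adjusted p = 0.101 over 5 library measures). The first principal component of the 12 libraries, with 43.7% of their variance, placed MS_EC12 replicates 3 to 6 at 31.6 to 73.4 and the other 8 libraries at −29.98 to −18.6. A length slope, the change per doubling of transcript length at equal GC content, was lower in every MS_EC12 library (−0.0725 to −0.00464) than in every Control library (0.0198 to 0.0489), and its exact p of 0.00216 is the smallest that 6 against 6 libraries can give (adjusted p = 0.0108). The length slope was thus low in MS_EC12 replicates 1 and 2 as well, whose GC slopes were near those of Control.

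**Figure D1:**
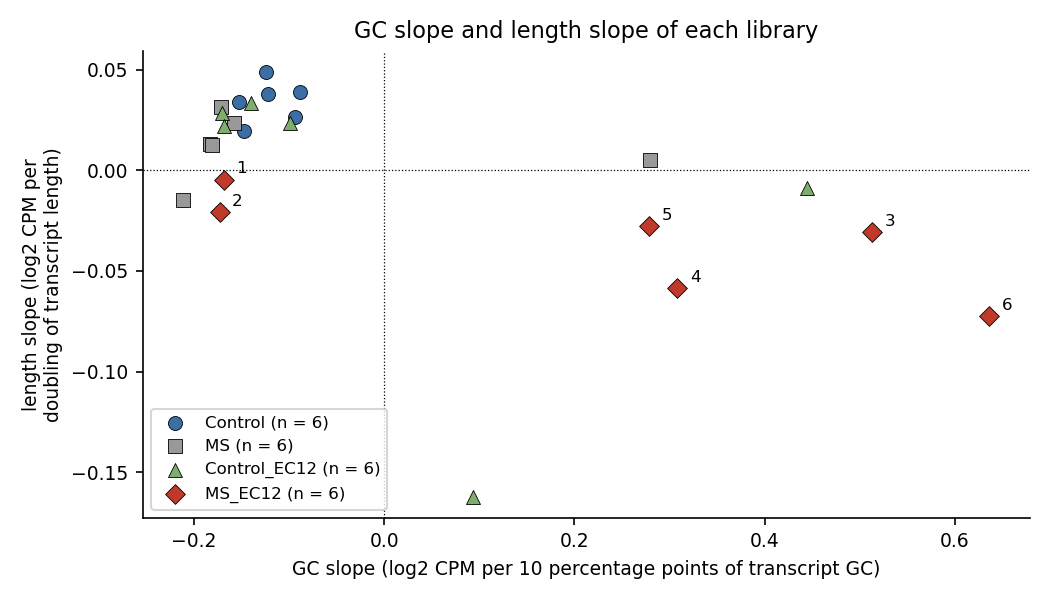
GC slope (x axis, log2 CPM per 10 percentage points of GC) against length slope (y axis, log2 CPM per doubling of transcript length) for the 24 libraries, 1 point each, coloured by group and with the MS_EC12 replicates numbered. MS_EC12 replicates 3 to 6 sit at GC slopes from 0.279 to 0.636, replicates 1 and 2 at −0.168 and −0.173, and all 6 have length slopes under those of the Control libraries.

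Many genes of all kinds differed between MS_EC12 and Control when no GC term was fitted. Of 18380 genes tested, 1344 were higher (7.31%) and 1250 lower (6.8%) in MS_EC12, together 14.1% of the genes tested (edgeR quasi-likelihood test, Benjamini-Hochberg adjusted p under 0.05), and 7035 had an unadjusted p under 0.05. Most calls lay close to the threshold: 96.5% of them had an adjusted p between 0.02 and 0.05, and the lowest adjusted p was 0.00458. On log2(TPM + 1) with limma, which applies no TMM scaling, the split of the calls was 613 higher and 3433 lower, and the median over all genes was −0.07, against 0.01 in the counts. The genes called higher had a median transcript GC content of 55.0%, the genes called lower 45.8% and all genes tested 50.8%. Across the decile of genes with the lowest GC content the median log2 fold change was −0.45, with 30 genes called higher and 239 lower. In the decile with the highest GC content it was 0.21, with 234 called higher and 4 lower. Sorted by length instead, the median log2 fold change ran from 0.18 in the shortest decile to −0.22 in the longest.

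The dependence on GC content was carried by 4 of the 6 libraries. Relative to the Control mean, the lowest GC decile stood at a median log2 difference of −0.84, −0.57, −0.58 and −1.10 in MS_EC12 replicates 3 to 6. In replicates 1 and 2 it stood at 0.04 and 0.05. The highest GC decile stood at 0.41, 0.27, 0.22 and 0.41 in replicates 3 to 6 and at −0.06 in both of the others. An offset that took each library's GC curve out of the counts gave 1265 genes higher and 888 lower (11.7%), of which 1351 were among the 2594 called without it, with median log2 fold changes from −0.01 to 0.03 over the deciles. With the GC slope of each library as a covariate, 22 genes were higher and 22 lower (0.239% of those tested). In the 17 libraries of the series with a GC slope below 0, which hold all 6 Control but only 2 MS_EC12 libraries, 80 genes were higher and 113 lower (1.01%).

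**Figure D2:**
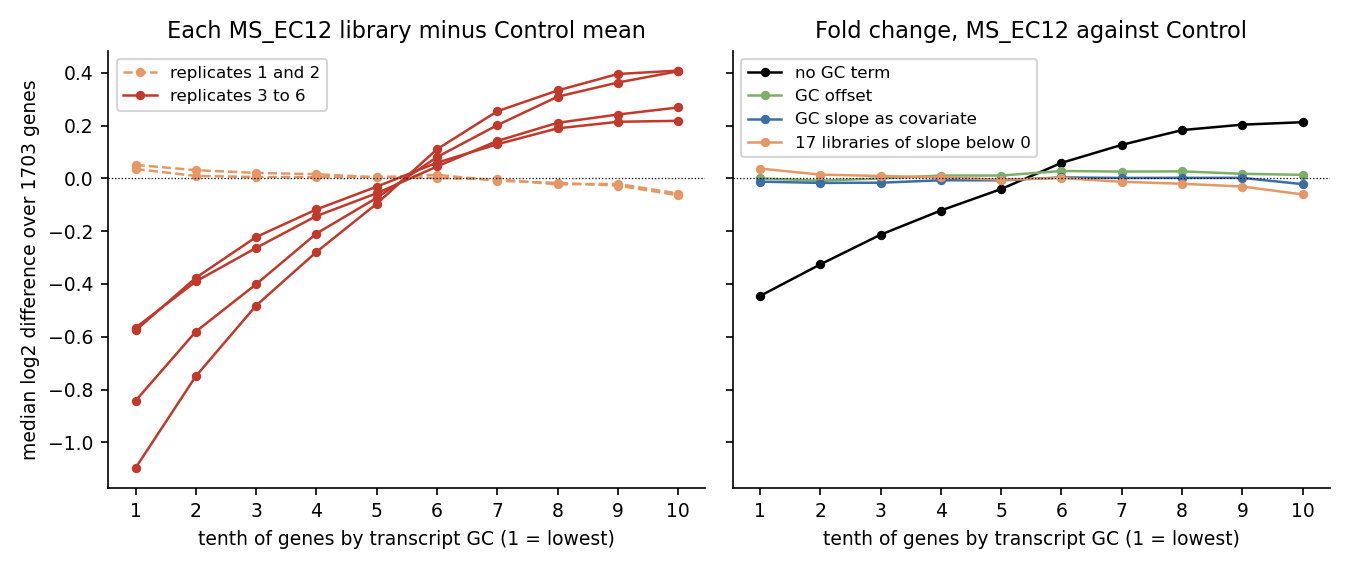
Median log2 difference over the 1703 genes of each decile by transcript GC content (x axis, 1 lowest to 10 highest). The left panel has 1 line per MS_EC12 library relative to the Control mean, and the right panel the fold change of MS_EC12 against Control under 4 fits: replicates 3 to 6 and the fit without a GC term climb from left to right, and the other lines stay between −0.06 and 0.05.

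The 2594 calls were made on libraries that these smaller comparisons share, so their values there are a description only. Their median absolute log2 fold change was 0.418 without a GC term, and the median in the called direction was 0.164 with the covariate and 0.138 in the 17 libraries. Since the covariate and the group are related here, the covariate also takes up part of any difference between the groups. The number of calls turned on single libraries too. It was 6544 without MS_EC12 replicate 1, 6135 without replicate 2, and 126, 111, 489 and 10 without replicates 3, 4, 5 and 6. Leaving out Control replicates 1 to 6 in turn gave 242, 315, 233, 370, 9 and 328 calls.

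**Figure D3:**
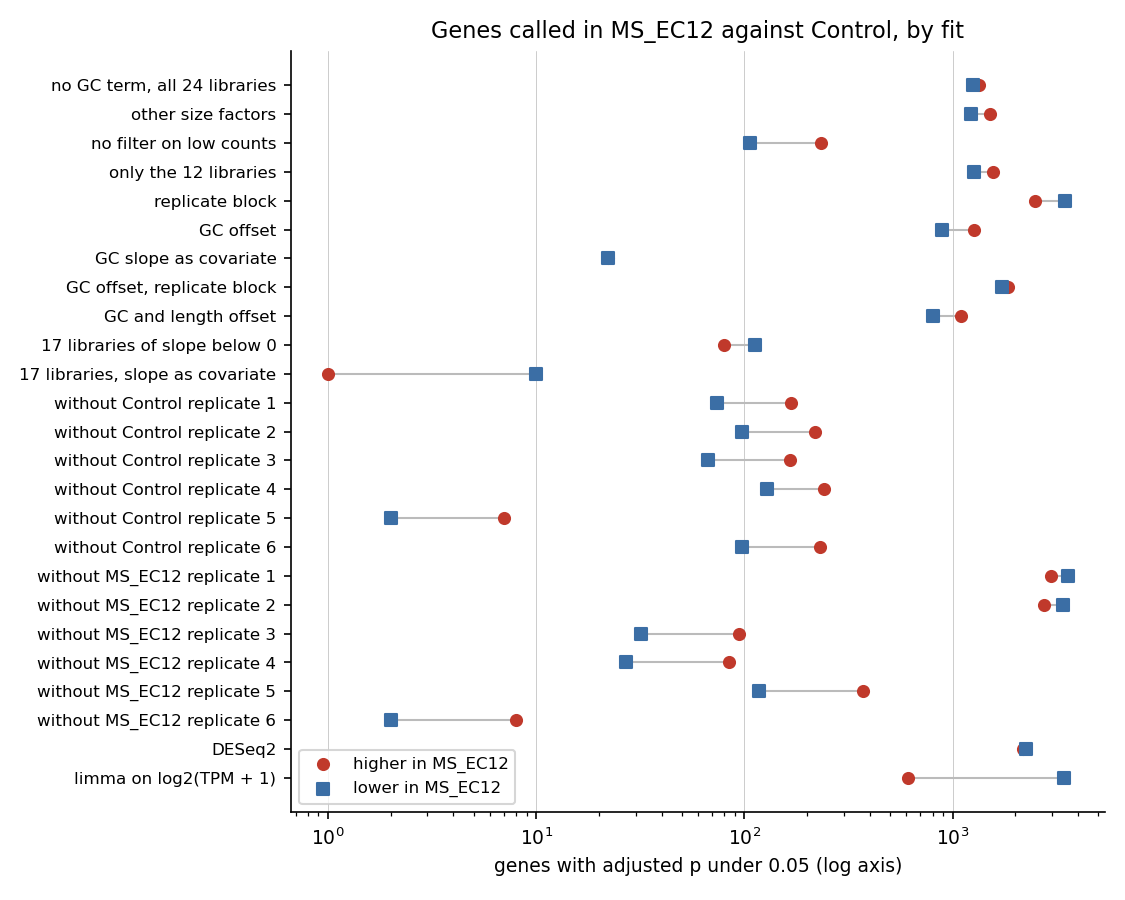
Number of genes called higher (red circles) and lower (blue squares) in MS_EC12 than in Control at an adjusted p under 0.05 (x axis, log scale) under each fit (y axis). By total calls, the fits run from 7 higher and 2 lower without Control replicate 5 to 2975 higher and 3569 lower without MS_EC12 replicate 1. The 17 libraries with the GC slope as a covariate have 1 higher and 10 lower.

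A small set of genes was called in each of 6 chosen fits. In all 6 of the fits without a GC term, with the GC offset, with the slope as covariate, with the replicate number as a block, on the 12 libraries alone and in DESeq2, 25 genes were called, 14 higher and 11 lower (0.136% of those tested). They include 2 unnamed gene models, so 23 are named here. None of the 6 fits had a term for transcript length. From the shortest to the longest decile, the median log2 fold change still ran from 0.14 to −0.11 with the GC offset. With the covariate it ran from 0.08 to −0.08. The libraries of MS_EC12 and Control did not overlap in CPM for 21 of the 25 (5.19% of all genes tested), which follows in part from choosing them on these libraries. In the 17 libraries, which share 8 of these 12, 16 of the 25 were called. With the covariate in the 17 libraries, the ones called among the 23 named were Nr4a3 and Map3k13 (adjusted p = 0.0400 for each), and Fkbp5 and Abhd4 were each at 0.167 and Arhgef3 at 0.418. In the 12 fits that each left out 1 library, 9 of the 25 were called every time, among them Trpv4, Nr4a3, Ppp1r3c, Pglyrp1, Xdh, Abhd4, Eln and H2bc4. Each other gene named below as called without a GC term lost that call without Control replicate 5 and, Plin4 excepted, without MS_EC12 replicate 6. The number called was 25 without MS_EC12 replicate 1 or 2, 17 without replicate 3 or 4, 21 without replicate 5 and 10 without replicate 6. It was 19, 20, 20, 21, 9 and 20 without Control replicates 1 to 6.

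Of these genes, Fkbp5, Ppp1r3c and Zbtb11 have the E-box CACGTG in the 250 bases before an annotated start. Outside the set, Per1 and Egr2 each have it in 1 window, and their other windows lack it. The Egr2 window is not written out here. The E-box, a palindrome that is the same on both strands, is bound by the clock's activators and by the repressor that Bhlhe40 encodes. It was searched for that reason. RefSeq promoter windows on GRCm38.p6 were used for 16 of the 23 named genes. Windows on 1 chromosome were left out for the named genes. The E-box was in at least 1 window of 3 of them (Fkbp5, Ppp1r3c and Zbtb11) and in 6.02% of all 32851 windows of that length. The cAMP response element TGACGTCA, also palindromic, was in 1 (Zbtb11) and in 1.55% of all windows. The glucocorticoid response element, searched as AGAACA and TGTTCT with any 3 bases between them and the same on both strands, was in 0 of the 16 genes and in 0.00913% of all windows. The counts are per gene, over any of its windows, and some of the 16 genes have more than 1 window. The shares are per window, so counts and shares are not on the same measure. A match describes these letters only. The windows below are written 5′ to 3′ on the gene's strand, with the E-box and, in Zbtb11, also the cAMP response element in capitals. They come from chr11:69098699-69098948 (plus strand) for Per1, chr17:28486150-28486399 (minus) for Fkbp5, chr19:36736605-36736854 (minus) for Ppp1r3c and chr16:55973554-55973803 (plus) for Zbtb11.
Per1: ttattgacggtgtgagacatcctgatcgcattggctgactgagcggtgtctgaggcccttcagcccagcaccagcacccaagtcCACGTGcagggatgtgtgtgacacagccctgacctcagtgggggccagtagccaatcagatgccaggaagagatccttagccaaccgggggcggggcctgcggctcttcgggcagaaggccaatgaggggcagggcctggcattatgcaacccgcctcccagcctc
Fkbp5: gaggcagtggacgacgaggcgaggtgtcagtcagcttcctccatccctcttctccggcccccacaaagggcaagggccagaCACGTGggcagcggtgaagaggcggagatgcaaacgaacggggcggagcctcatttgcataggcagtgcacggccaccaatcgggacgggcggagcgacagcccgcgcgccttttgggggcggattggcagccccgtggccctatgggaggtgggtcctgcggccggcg
Ppp1r3c: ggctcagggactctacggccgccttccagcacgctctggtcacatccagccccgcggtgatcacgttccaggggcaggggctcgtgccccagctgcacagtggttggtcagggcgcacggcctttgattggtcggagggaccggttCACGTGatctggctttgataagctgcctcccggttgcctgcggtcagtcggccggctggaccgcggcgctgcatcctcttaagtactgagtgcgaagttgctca
Zbtb11: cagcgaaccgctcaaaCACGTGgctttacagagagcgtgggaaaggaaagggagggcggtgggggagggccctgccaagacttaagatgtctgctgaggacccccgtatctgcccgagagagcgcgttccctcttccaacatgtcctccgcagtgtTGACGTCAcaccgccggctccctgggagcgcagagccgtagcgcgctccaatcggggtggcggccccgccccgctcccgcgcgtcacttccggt

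Genes that glucocorticoids induce were among the higher ones. Fkbp5 (chr17:28398753-28486149), a co-chaperone that lowers the hormone affinity of the glucocorticoid receptor, ran from 33.8 to 38.7 CPM in Control (median 35.5) and from 38.6 to 51.4 CPM in MS_EC12 (median 42.6). Only MS_EC12 replicate 5, at 38.6 CPM, reached down to the highest Control library. Fkbp5 rose by 0.28 on the log2 scale (SE 0.07, adjusted p = 0.0274), and by 0.35 with the slope as covariate (adjusted p = 0.0201). It was called in 4 of the 12 fits that left out 1 library, with an adjusted p of 0.0671 without MS_EC12 replicate 6. Plin4 (chr17:56100587-56109948), a coat protein of lipid droplets, ran from 2.35 to 4.51 CPM in Control (median 2.51) and from 5.05 to 7.88 CPM in MS_EC12 (median 6.94), with no overlap. Control replicate 4 was the one library that stood apart, at 4.51 CPM. Plin4 rose by 1.204 on the log2 scale (SE 0.22, adjusted p = 0.0157), by 1.14 with the covariate (adjusted p = 0.0378), and lost its call only without Control replicate 5 (adjusted p = 0.0501). Its span overlaps that of Hdgfl2, so reads could have been shared between them.

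In Control_EC12, Plin4 and Fkbp5 had medians of 1.37 and 30.6 CPM, on the other side of Control. The difference between MS_EC12 and Control_EC12 was 2.11 on the log2 scale for Plin4 (adjusted p = 3.01e-05) and 0.48 for Fkbp5 (adjusted p = 0.00113), both called. MS against Control gave 0.45 and 0.07, and Control_EC12 against Control −0.90 and −0.21, none of them called. These comparisons share libraries with one another. Tests of the interaction, which asks whether the MS_EC12 difference departs from the sum of the single ones, gave adjusted p of 0.112 and 0.238.

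The wider list of 26 glucocorticoid-induced genes had 10 members called higher and 1 lower, where 14.1% of all genes were called, and a median log2 fold change of 0.25 against 0.01 over all genes. With the slope as covariate 3 were higher and 1 lower (15.4% called, against 0.239% of all genes), with a median of 0.12 and 18 of 26 above 0. In the 17 libraries 4 were higher and 2 lower (23.1%, against 1.01% of all genes). The median there was 0.07 and 14 of 26 were above 0, against 19 without a GC term. The other members named here were Cdkn1a, a cell-cycle inhibitor (0.51, SE 0.13, adjusted p = 0.0306), Mt1, a metal-binding metallothionein (0.52, SE 0.12, adjusted p = 0.0227), and Pnpla2, the triglyceride lipase of lipid droplets (0.50, SE 0.10, adjusted p = 0.0181). With the covariate their log2 fold changes were 0.36, 0.31 and 0.35, none called, and without MS_EC12 replicate 6 and no GC term their adjusted p were 0.0842, 0.0792 and 0.0657. Per1, on the same list, was the member called lower. The receptor genes themselves were lower. Nr3c1, the glucocorticoid receptor, ran from 97.6 to 122 CPM in Control and from 54.0 to 96.0 CPM in MS_EC12, and fell by 0.52 on the log2 scale (SE 0.14, adjusted p = 0.0319). Its 4 lowest libraries were the MS_EC12 libraries of high GC slope, replicates 3 to 6. The covariate gave −0.21 (adjusted p = 0.349) and the 17 libraries −0.23 (adjusted p = 0.198). Nr3c2, the mineralocorticoid receptor, fell by 0.36 (SE 0.10, adjusted p = 0.0338), with −0.17 under the covariate (adjusted p = 0.357). Neither receptor was called without MS_EC12 replicate 6 (adjusted p = 0.102 and 0.108).

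Named genes of the clock and of the response to neuronal activity were called lower in MS_EC12. Nr4a3 (chr4:48045078-48086447), an orphan nuclear receptor and immediate early gene, ran from 39.7 to 61.2 CPM in Control (median 53.8) and from 21.4 to 34.9 CPM in MS_EC12 (median 26.3). No library overlapped, and MS_EC12 replicates 1 and 2, whose GC slopes lay just below those of Control, were the lowest at 22.01 and 21.4 CPM. Nr4a3 fell by 0.92 on the log2 scale (SE 0.14, adjusted p = 0.00488), by 0.70 with the GC offset (adjusted p = 0.0129), by 0.98 with the covariate (adjusted p = 0.00692) and by 1.26 in the 17 libraries (adjusted p = 0.00365). It was called in all 12 fits that left out 1 library. MS alone differed from Control by −0.66 (adjusted p = 0.0969) and Control_EC12 by 0.02 (adjusted p = 0.958), while MS_EC12 was lower than Control_EC12 by −0.94 (adjusted p = 0.00162).

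Bhlhe40 (chr6:108660629-108666925), a transcriptional repressor of the clock's negative limb, ran from 124 to 153 CPM in Control and from 75.2 to 130 CPM in MS_EC12. Of the 6 MS_EC12 libraries, 5 lay below every Control library. It fell by 0.37 on the log2 scale (SE 0.11, adjusted p = 0.0361), by 0.58 with the covariate (adjusted p = 0.00692) and by 0.70 in the 17 libraries (adjusted p = 0.00888). It held its call in 2 of the 12 fits that left out 1 library, those without MS_EC12 replicates 1 and 2, and had an adjusted p of 0.0955 without MS_EC12 replicate 6. Per1 (chr11:69095108-69109965), a core clock repressor, ran from 113 to 127 CPM in Control and from 64.2 to 117 CPM in MS_EC12, where replicates 1 and 2 were again the lowest. Its log2 fold change went from −0.37 without a GC term (SE 0.11, adjusted p = 0.0394) to −0.58 with the GC offset (adjusted p = 0.00162), −0.62 with the covariate (adjusted p = 0.00571) and −0.77 in the 17 libraries (adjusted p = 0.00221). Without MS_EC12 replicate 6 and no GC term, the adjusted p was 0.0780, and 2 of 12 such fits called it.

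Per2, the paralogue of Per1, ran from 48.7 to 68.1 CPM in Control and from 34.5 to 57.0 CPM in MS_EC12, and fell by 0.50 (SE 0.14, adjusted p = 0.0350). The covariate gave −0.51 (adjusted p = 0.186). In Control_EC12 it was lower still, with a median of 30.02 CPM and −1.08 on the log2 scale against Control (adjusted p = 0.00106). Egr2, a zinc finger transcription factor of the early response, ran from 13.5 to 18.6 CPM in Control and from 7.69 to 11.9 CPM in MS_EC12 without overlap, and fell by 0.81 (SE 0.21, adjusted p = 0.0298). Klf10, a TGF-beta inducible repressor, fell by 0.57 (SE 0.12, adjusted p = 0.0181), also without overlap. With the covariate these gave −0.91 and −0.56, with adjusted p of 0.0967 and 0.0701. With MS_EC12 replicate 6 left out and no GC term, Per2, Egr2 and Klf10 had adjusted p of 0.0932, 0.0960 and 0.0657. The activity markers Fos and Arc had log2 fold changes of −0.30 and −0.64, neither called (adjusted p = 0.141 and 0.122), with overlapping libraries.

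Taken as lists, 6 of 44 immediate early genes were called lower and 1 higher, which is 15.9% called against 14.1% of all genes, with a median of −0.21. With the covariate 2 were lower and 0 higher (4.55%, against 0.239% of all genes), with a median of −0.30. In the 17 libraries 9 were lower and 0 higher (20.5%, against 1.01% of all genes), with a median of −0.40. Of 23 clock genes 6 were lower and 0 higher without a GC term (26.1% called). With the covariate 2 were lower and 0 higher (8.7%), and in the 17 libraries 3 were lower and 0 higher (13%). The clock medians were −0.09, −0.12 and −0.18 in the same order. Per1 is on both lists. The labels do not state the time of day at collection.

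In the edgeR fit without a GC term, Bhlhe40 and Banp were the 2 genes called for an interaction between rearing and supplement (0.0109% of those tested). Bhlhe40 had a median of 136 CPM in Control, 78.8 in MS, 94.4 in Control_EC12 and 112 in MS_EC12. Its log2 fold changes against Control were −0.76 in MS (adjusted p = 0.00430), −0.50 in Control_EC12 (adjusted p = 0.0740) and −0.37 in MS_EC12. The interaction was 0.89 (SE 0.15, adjusted p = 0.0379). Banp, which encodes a DNA-binding nuclear matrix protein, had medians of 27.5, 19.1, 18.1 and 22.1 CPM in the same order. Its log2 fold changes against Control were −0.52 in MS (adjusted p = 0.0251), −0.64 in Control_EC12 (adjusted p = 0.00210) and −0.32 in MS_EC12 (SE 0.09, adjusted p = 0.0352), with an interaction of 0.84 (SE 0.13, adjusted p = 0.0152). With the covariate the interactions were 0.76 and 0.78, both at an adjusted p of 0.00635. In the 17 libraries they were 0.61 and 0.63, with adjusted p of 0.332 and 0.182. Limma on log2(TPM + 1) gave 0.81 and 0.70, neither called (adjusted p = 0.288 and 0.703). In edgeR with no filter on low counts, the interaction of Bhlhe40 was not called (adjusted p = 0.0589) and that of Banp was (adjusted p = 0.029). Banp in MS_EC12 against Control was called in 3 of the 12 fits that left out 1 library, with an adjusted p of 0.104 without MS_EC12 replicate 6.

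Some genes of high GC content were called lower with the GC slope as covariate but not in the edgeR fit without a GC term. Foxo6 (GC content 69.1%), a forkhead transcription factor enriched in the brain, ran from 12.8 to 16.7 CPM in Control and from 8.84 to 15.2 CPM in MS_EC12. It had −0.31 without a GC term (adjusted p = 0.0780), −0.61 with the covariate (adjusted p = 0.00571) and −0.60 in the 17 libraries (adjusted p = 0.0233). Efnb1, a membrane-bound ephrin ligand, went from −0.31 (adjusted p = 0.0558) to −0.53 with the covariate (adjusted p = 0.0138). Cbfa2t3, a transcriptional corepressor, went from −0.31 (adjusted p = 0.0590) to −0.53 (adjusted p = 0.0138). DESeq2, with no GC term, called Efnb1 and Cbfa2t3 (adjusted p = 0.0420 and 0.0473) but not Foxo6 (0.0684). In both Efnb1 and Cbfa2t3, MS_EC12 replicates 1 and 2 were among the lowest libraries, at 13.1 and 12.3 CPM for Efnb1 and 21.8 and 21.2 CPM for Cbfa2t3. The opposite was seen for AT-rich Pex2, which encodes a peroxisome assembly factor (GC content 43.1%): 0.18 without a GC term (adjusted p = 0.205) and 0.39 with the covariate (adjusted p = 0.0378). Of the 44 genes called with the covariate, 15 were not called without a GC term, 7 higher and 8 lower.

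Xdh (chr17:73883895-73950397), xanthine dehydrogenase, the enzyme that forms uric acid in purine breakdown, had 6 higher libraries of 6. It ran from 2.40 to 4.47 CPM in Control (median 3.34) and from 5.56 to 7.72 CPM in MS_EC12 (median 6.61). The highest values were in MS_EC12 replicates 1 and 2, at 6.83 and 7.72 CPM. Xdh rose by 0.93 on the log2 scale (SE 0.15, adjusted p = 0.00677), by 1.01 with the covariate (adjusted p = 0.00692) and by 1.09 in the 17 libraries (adjusted p = 0.0133), and was called in all 12 fits that left out 1 library. Neither single factor gave a call: MS had −0.03 and Control_EC12 −0.15 against Control. MS_EC12 was higher than MS by 0.96 (adjusted p = 0.0294) and higher than Control_EC12 by 1.09 (adjusted p = 0.00113), and the interaction had an adjusted p of 0.144. Xdh was the 1 of 22 purine breakdown and salvage genes called with the covariate (4.55%, against 0.239% of all genes). Without the covariate 3 were higher and 1 lower (18.2% called, against 14.1% of all genes).

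Trpv4 (chr5:114622152-114658435), a calcium-permeable channel gated by warmth and osmotic stretch, was highest of the 23 in fold change. Control ran from 0.563 to 1.36 CPM (median 0.798) and MS_EC12 from 1.52 to 5.67 CPM (median 2.49), without overlap, and replicate 6 stood apart at 5.67 CPM. It rose by 1.73 on the log2 scale (SE 0.26, adjusted p = 0.00488) and by 1.41 both with the covariate (adjusted p = 0.0277) and in the 17 libraries (adjusted p = 0.0296). Trpv4 is also on the list of choroid plexus markers, a tissue of the ventricles that makes cerebrospinal fluid. In MS_EC12 replicate 6, Ttr, the transthyretin gene that marks this tissue, reached 642 CPM, against 0.317 to 2.84 CPM in the other 5 MS_EC12 libraries and 0.111 to 0.857 CPM in Control. The 11 of 16 choroid plexus markers that passed the count filter summed to 17 to 27.5 CPM in Control, and to 24.7 to 724 CPM in MS_EC12 with a median of 26. Folr1, a defining marker, was among the members that did not pass the filter. Sostdc1, a Wnt and BMP antagonist and a marker that passed the filter, was 3.75 CPM in replicate 6 and at most 1.00 CPM in the other 11 libraries. Without replicate 6, Trpv4 was still called, as in all 12 fits that left out 1 library, and Ttr was not (adjusted p = 0.246, against 0.0264 with it), as in 7 of those 12 fits. Oxt, the oxytocin gene of the hypothalamus, also peaked in replicate 6, at 19.1 CPM against at most 2.69 CPM elsewhere in the 12 libraries, and lost its call without it (adjusted p = 0.342).

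Other genes called higher in all 6 fits had varied roles. Pglyrp1, a peptidoglycan recognition protein that binds bacterial cell walls, ran from 2.00 to 3.65 CPM in Control and from 5.27 to 8.59 CPM in MS_EC12, without overlap. It rose by 1.21 (SE 0.20, adjusted p = 0.00677), and by 1.03 with the covariate (adjusted p = 0.0378). Against MS the log2 difference of MS_EC12 was 0.73 (adjusted p = 0.0754) and against Control_EC12 1.17 (adjusted p = 0.00666). Eln, elastin of the extracellular matrix, ran from 4.54 to 7.32 CPM in Control and from 7.18 to 12.9 CPM in MS_EC12, overlapping in 1 library, and rose by 0.74 (SE 0.12, adjusted p = 0.00713) and by 0.71 with the covariate. Abhd4, a lysophospholipase of the N-acyl ethanolamine pathway, ran from 51.7 to 60.3 and from 75.8 to 115 CPM, and rose by 0.63 (SE 0.10, adjusted p = 0.00677) and by 0.45 with the covariate. Pglyrp1, Eln and Abhd4 were called in all 12 fits that left out 1 library.

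Ezr, which links the membrane to actin, was highest in MS_EC12 replicates 6, 1 and 2, at 91.8, 87.6 and 79.6 CPM against 51.2 to 60.1 CPM in Control. It rose by 0.46 (SE 0.09, adjusted p = 0.0181), and was called in 10 of the 12 such fits, but not without Control replicate 5 or MS_EC12 replicate 6 (at most 0.0657). Thrsp, a regulator of fatty acid synthesis induced by thyroid hormone, was also highest in MS_EC12 replicates 1 and 2, at 20.9 and 21.5 CPM against 10.5 to 12.9 CPM in Control. Its log2 fold change was 0.53 (SE 0.12, adjusted p = 0.0227) and 0.85 in the 17 libraries (adjusted p = 0.00454), with 1 MS_EC12 library inside the Control range. Its call was lost also without Control replicate 1 (at most 0.0657). H2bc4, a histone H2B gene, rose by 0.56 (SE 0.10, adjusted p = 0.0117), Chchd2, which encodes a mitochondrial protein, by 0.55 (SE 0.11, adjusted p = 0.0181), and Ppp1r10, a nuclear targeting subunit of protein phosphatase 1, by 0.45 (SE 0.08, adjusted p = 0.0158). With the covariate H2bc4, Chchd2 and Ppp1r10 rose by 0.44, 0.26 and 0.29. Their libraries did not overlap. Ppp1r10 and Chchd2 lost their calls without Control replicate 5 or MS_EC12 replicate 6 (at most 0.0657). In Chchd2 the increase was larger in the libraries of high GC slope, from 202 to 266 CPM, than in replicates 1 and 2, at 176 and 164 CPM, against 141 to 151 CPM in Control.

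**Figure D4:**
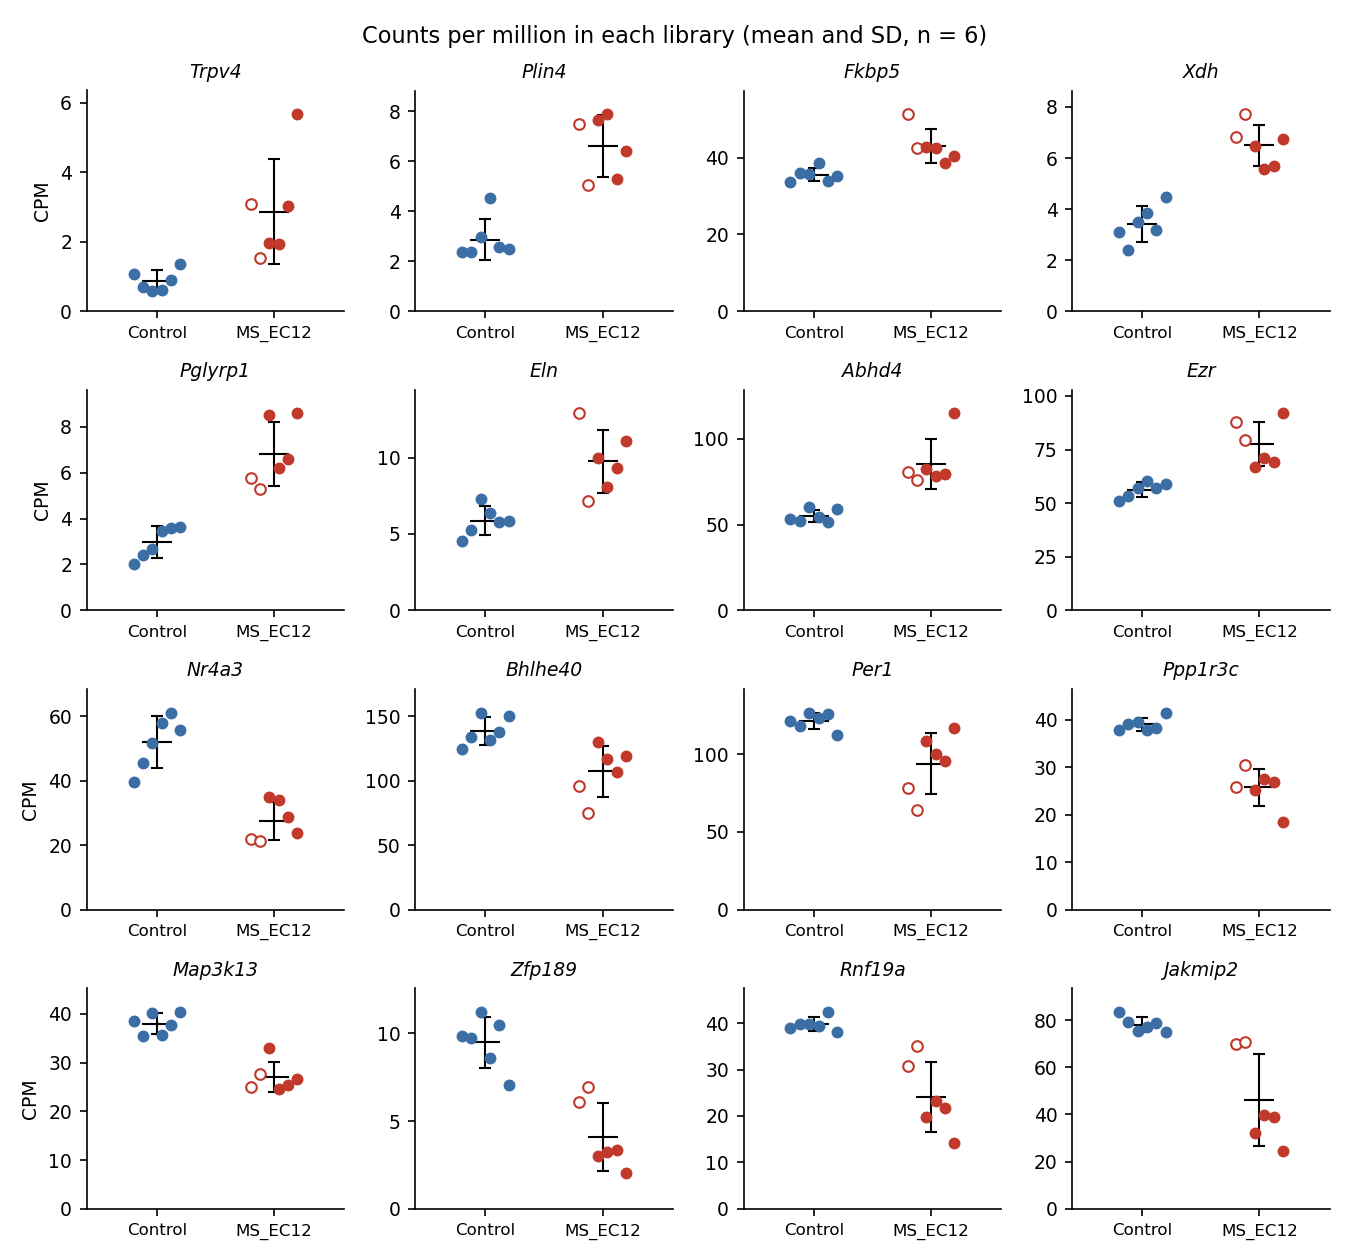
CPM (y axis, from 0) of 16 genes in each of the 12 libraries, with the mean and SD of each group (n = 6). Filled points are the Control libraries (blue) and MS_EC12 replicates 3 to 6 (red), and open red points are MS_EC12 replicates 1 and 2, which for Nr4a3, Per1 and Bhlhe40 are the furthest from Control and for Rnf19a, Jakmip2 and Zfp189 the nearest.

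Among the genes lower in all 6 fits, Ppp1r3c (chr19:36731731-36736604), a subunit that steers protein phosphatase 1 to glycogen, had narrow Control values of 37.8 to 41.5 CPM (median 38.7). MS_EC12 ran from 18.5 to 30.5 CPM (median 26.4), without overlap. It fell by 0.60 (SE 0.10, adjusted p = 0.00675), by 0.45 with the covariate (adjusted p = 0.0234) and by 0.47 in the 17 libraries (adjusted p = 0.0318), and was called in all 12 fits that left out 1 library. Map3k13, a neuronal kinase of axon injury signalling, ran from 35.5 to 40.4 CPM in Control and from 24.6 to 33.0 CPM in MS_EC12. Its fall of 0.49 (SE 0.09, adjusted p = 0.0158) was 0.54 with the covariate and 0.52 in the 17 libraries. Control_EC12 alone gave −0.47 (adjusted p = 0.0669) and MS −0.34 (adjusted p = 0.440). Kmt5a, a methyltransferase of histone H4, fell by 0.31 (SE 0.06, adjusted p = 0.0181) and Arhgef3 by 0.43 (SE 0.09, adjusted p = 0.0181), and by 0.28 and 0.25 with the covariate. The calls of Map3k13, Kmt5a and Arhgef3 were lost without Control replicate 5 or MS_EC12 replicate 6 (adjusted p at most 0.0657).

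A further group fell mainly in the libraries of high GC slope. Zfp189, a zinc finger transcription factor, was at 7.05 to 11.2 CPM in Control, 6.10 and 6.93 CPM in MS_EC12 replicates 1 and 2, and 2.04 to 3.32 CPM in replicates 3 to 6. It fell by 1.21 (SE 0.26, adjusted p = 0.0203), with −0.61 under the covariate (adjusted p = 0.0448) and −0.54 in the 17 libraries (adjusted p = 0.178). Jakmip2, a microtubule-associated protein of neurons, was at 74.8 to 83.5 CPM in Control, 69.7 and 70.9 CPM in replicates 1 and 2, and 24.6 to 39.9 CPM in the others. Its log2 fold change of −0.76 (SE 0.21, adjusted p = 0.0342) was −0.25 with the covariate (adjusted p = 0.0275) and −0.15 in the 17 libraries (adjusted p = 0.244). Rnf19a, a ubiquitin ligase, Zbtb11, a zinc finger regulator whose span overlaps Rpl24, and Zfp458 had the same arrangement. They fell by 0.72, 0.63 and 1.07 without a GC term and had −0.27, −0.22 and −0.21 in the 17 libraries, where only Rnf19a was called (adjusted p = 0.0457). Without MS_EC12 replicate 6 and no GC term, these 5 genes had adjusted p from 0.0676 in Zfp189 to 0.104 in Jakmip2. The GC content of these 5 genes ran from 38.0% in Zfp458 to 44.8% in Rnf19a.

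Many genes for protein synthesis and respiration were called higher, where 7.31% of all genes were. Of 84 cytosolic ribosomal protein genes 66 were called higher and 0 lower, with a median log2 fold change of 0.40. Of 81 nuclear genes for the respiratory chain and ATP synthase 55 were higher and 0 lower, with a median of 0.33. Rpl27 ran from 76.3 to 82.6 CPM in Control and from 87.3 to 134 CPM in MS_EC12 (0.52, SE 0.10, adjusted p = 0.0181). Cox7c, a subunit of cytochrome oxidase, ran from 125 to 143 and from 149 to 222 CPM (0.47, SE 0.11, adjusted p = 0.0227). In both, replicates 1 and 2 lay above all Control libraries but under the other 4, and without replicate 6 the adjusted p were 0.0657 and 0.0792. With the covariate 0 members of either list were called in either direction, and the medians were 0.18 and 0.12. In the 17 libraries 4 ribosomal and 3 respiratory genes were higher and 0 lower (4.76% and 3.7% called, against 1.01% of all genes). The medians there were 0.12 and 0.10, with 82 of 84 and 76 of 81 members above 0. The transcripts of both groups are short, and the length slope given above moves with them in the same libraries. Its part in these values was not tested. Ribosomal protein genes also have processed pseudogenes with which reads can be shared.

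The 13 protein genes of the mitochondrial genome had values that moved with the handling of GC content. Without a GC term 4 were higher and 0 lower (30.8% called against 14.1% of all genes, median 0.13). With the GC offset 11 were higher (84.6% against 11.7%, median 0.82). With the covariate 0 were called, where 0.239% of all genes were (median 0.19). ND3, a subunit of complex I, ran from 540 to 634 CPM in Control and from 689 to 889 CPM in MS_EC12 replicates 1 to 5, with 1322 CPM in replicate 6. Its log2 fold change was 0.60 (SE 0.16, adjusted p = 0.0326), 1.63 with the offset and 0.25 with the covariate (adjusted p = 0.445), and its adjusted p was 0.108 without replicate 6. These transcripts are at the AT-rich end, with a median GC content of 37.1%. As a share of all counts they were 6.91 ± 0.547% in Control and 7.54 ± 0.686% in MS_EC12 (SD, n = 6, exact permutation p = 0.121).

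The medians of the zinc finger and GABA receptor lists lay below 0 without a GC term. Of 370 numbered Zfp genes, most of which encode zinc finger DNA-binding proteins, 45 were called lower and 7 higher, with a median of −0.46. The share called, 14.1%, was that of all genes tested. With the covariate 2 were lower and 0 higher (0.541% called against 0.239% of all genes, median −0.05). In the 17 libraries 2 were lower and 0 higher (0.541% against 1.01% of all genes, median 0.03). Zfp667 was at 16.5 to 19.2 CPM in Control, 13.6 and 16.0 CPM in MS_EC12 replicates 1 and 2, and 5.69 to 8.57 CPM in the others. It fell by 0.89 (SE 0.23, adjusted p = 0.0292), with −0.38 under the covariate (adjusted p = 0.129). Of 17 GABA receptor genes, which mediate cortical inhibition, 4 were lower and 0 higher, 23.5% called against 14.1% of all genes (median −0.38, −0.06 with the covariate and 0 called). The subunit gene Gabrb2 was at 293 to 320 CPM in Control, 279 and 302 CPM in replicates 1 and 2, and 92.8 to 166 CPM in replicates 3 to 6. It fell by 0.74 (SE 0.24, adjusted p = 0.0463), with −0.09 in the 17 libraries (adjusted p = 0.615). Grm5, the 1 member called of 7 metabotropic glutamate receptor genes (14.3%), fell by 0.61 (SE 0.16, adjusted p = 0.0330), and the covariate gave −0.23 (adjusted p = 0.2998). Of 23 AMPA, NMDA and kainate receptor genes 3 were lower and 0 higher (13%, median −0.09). Gria2, an AMPA receptor subunit that was not called, had −0.75 (SE 0.26, adjusted p = 0.0515) and −0.06 in the 17 libraries. Without MS_EC12 replicate 6, Zfp667, Gabrb2 and Grm5 had adjusted p of 0.0932, 0.131 and 0.103. Values near Control in replicates 1 and 2 and low values in the other 4 were thus the pattern of Zfp667, Gabrb2 and Gria2 alike.

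**Figure D5:**
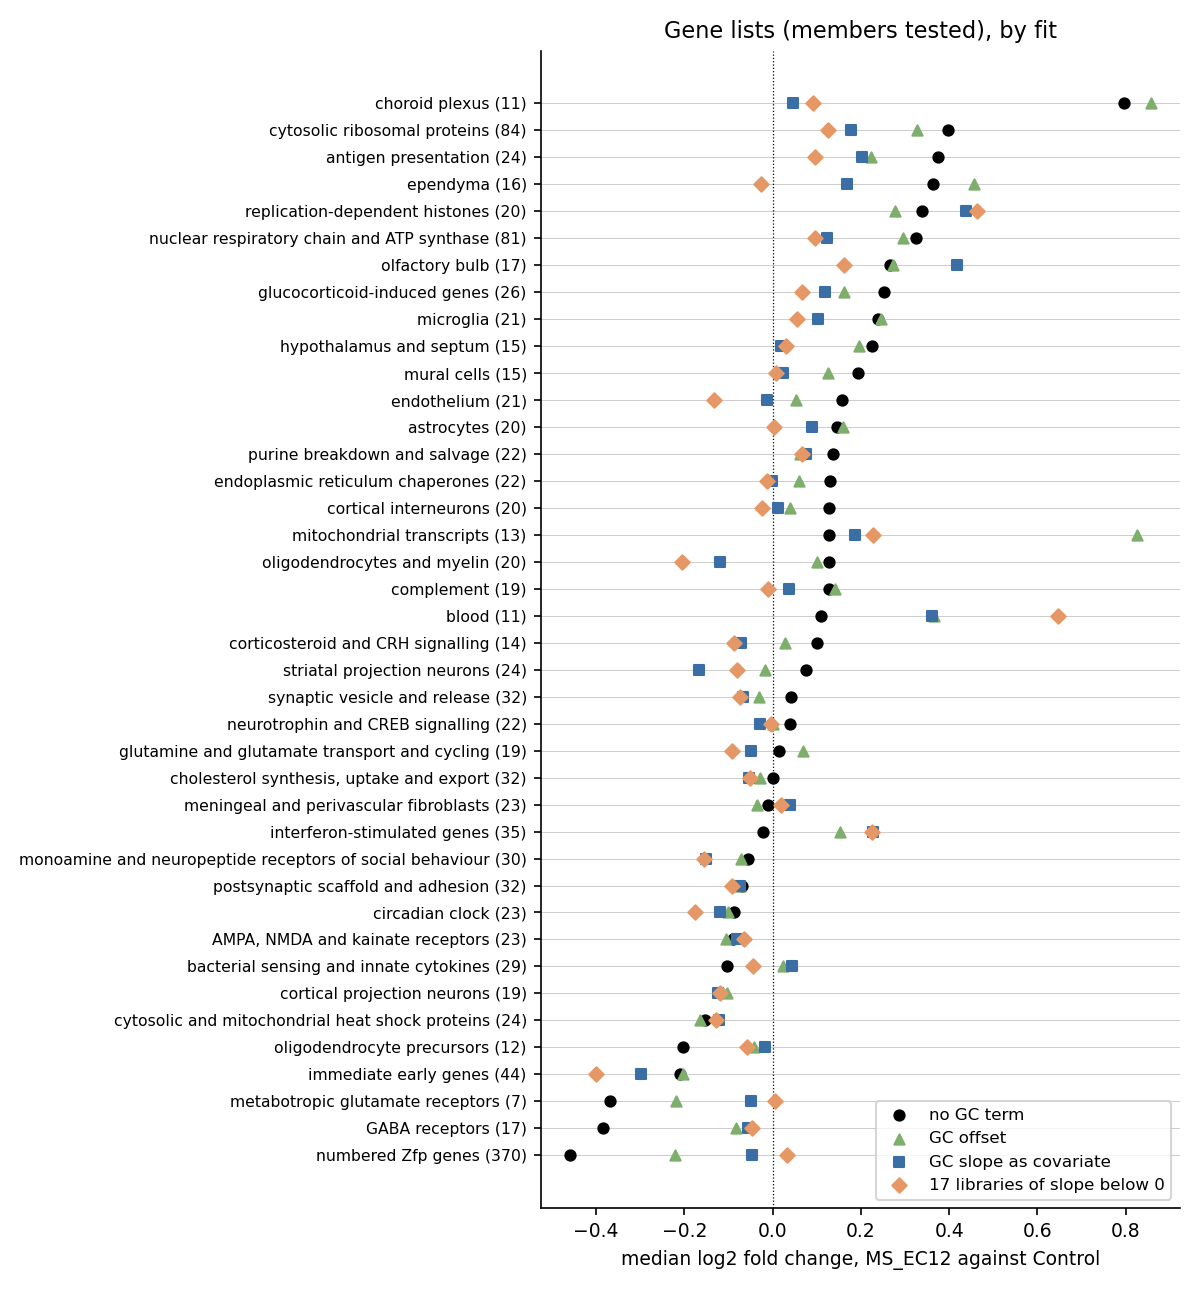
Median log2 fold change of MS_EC12 against Control (x axis) for 40 gene lists (y axis, with the number of members tested) under 4 fits. Ribosomal, respiratory and antigen presentation genes lie to the right and numbered Zfp, GABA receptor and metabotropic glutamate receptor genes to the left without a GC term (black), and their values lie nearer 0 with the GC slope as covariate (blue). Choroid plexus lies furthest right without a GC term (0.80). Some lists lie further from 0 with the covariate, such as histones (0.34 to 0.44), olfactory bulb (0.27 to 0.42) and immediate early genes (−0.21 to −0.30).

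Some immune genes were higher in MS_EC12. Of 24 antigen presentation genes 9 were called higher and 0 lower (37.5% called against 14.1% of all genes, median 0.38). H2-D1, a class I histocompatibility gene, ran from 33.6 to 37.2 CPM in Control, was 37.9 and 34.8 CPM in MS_EC12 replicates 1 and 2, and ran from 49.6 to 60.1 CPM in the others. It rose by 0.48 (SE 0.11, adjusted p = 0.0250), with 0.19 under the covariate (adjusted p = 0.346) and 0.04 in the 17 libraries (adjusted p = 0.884). Psmb10, an immunoproteasome subunit, rose by 0.52 (SE 0.12, adjusted p = 0.0239), without overlap. Of 21 microglial markers 7 were higher and 0 lower (33.3% called, median 0.24), among them the complement gene C1qb (0.54, SE 0.11, adjusted p = 0.0197) and the adaptor Tyrobp (0.51, SE 0.13, adjusted p = 0.0288). Without MS_EC12 replicate 6, H2-D1, Psmb10, C1qb and Tyrobp had adjusted p of 0.0842, 0.0792, 0.0678 and 0.0955. The summed microglial level was 615 to 731 CPM in Control and 678 to 850 CPM in MS_EC12. MS_EC12 replicates 1 and 2, at 678 and 725 CPM, lay inside the Control range. With the covariate 0 members of either list were called, with medians of 0.20 and 0.10, and 22 of 24 and 19 of 21 members were above 0. In the 17 libraries 0 were called as well, the medians were 0.10 and 0.06, and 18 of 24 and 15 of 21 were above 0. Psmb10, C1qb and Tyrobp had 0.25, 0.27 and 0.23 with the covariate (adjusted p = 0.292, 0.201 and 0.379). In bulk tissue, more cells of a type and more RNA per cell cannot be told apart.

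Among 35 interferon-stimulated genes 4 were higher and 1 lower (14.3% called, against 14.1% of all genes), with a median of −0.02 and 17 of 35 above 0. With the covariate 0 were called (median 0.23, 32 of 35 above 0). Irf7, one of the higher, rose by 0.71 (SE 0.18, adjusted p = 0.0309) and had 0.49 with the covariate (adjusted p = 0.354). Of 29 genes for bacterial sensing and innate cytokines 1 was higher and 2 lower (10.3% called), with a median of −0.10, and with the covariate 0 were called and the median was 0.04. Of 11 blood markers 4 were higher and 1 lower, 45.5% called against 14.1% of all genes. With the covariate 0 of the 11 were called, where 0.239% of all genes were. The haemoglobin genes Hbb-bs and Hba-a1 rose by 0.67 (SE 0.19, adjusted p = 0.0351) and 0.64 (SE 0.19, adjusted p = 0.0379). With the covariate Hbb-bs and Hba-a1 had 0.63 and 0.53, neither called (adjusted p = 0.225 and 0.321). Irf7, Hbb-bs and Hba-a1 without MS_EC12 replicate 6 had adjusted p of 0.0913, 0.111 and 0.124. The summed level of the 11 blood markers was 519 to 638 CPM in Control and 569 to 900 CPM in MS_EC12. The part of blood or of other tissue in the immune values was not tested. Striatal and olfactory bulb markers, which a cortical dissection could carry in, had 0 of 24 and 0 of 17 members called, against 14.1% of all genes. With the GC offset 1 olfactory bulb marker was higher (5.88% called against 11.7% of all genes), as on the 12 libraries alone (6.25% against 16.1%). With the replicate block 4.17% of the striatal and 11.8% of the olfactory bulb markers were called, against 32.3% of all genes. The striatal markers summed to 2990 to 3610 CPM in Control and 2130 to 4800 CPM in MS_EC12, with replicates 1 and 2 at 2130 and 3990. Their median log2 fold change was 0.07, and −0.17 with the covariate, where 0 of 24 were above 0. The olfactory bulb markers summed to 744 to 1170 CPM in Control and 824 to 1360 CPM in MS_EC12. Their medians were 0.27, and 0.42 with the covariate.

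Glial and transport genes moved in both directions. Aqp4, the water channel of astrocyte endfeet, ran from 108 to 125 CPM in Control and from 32.7 to 90.4 CPM in MS_EC12, without overlap, and fell by 0.71 (SE 0.21, adjusted p = 0.0370). The covariate gave −0.19 (adjusted p = 0.541) and the 17 libraries −0.35 (adjusted p = 0.0240). Mlc1, another astrocyte membrane protein, rose by 0.43 (SE 0.09, adjusted p = 0.0181), with 0.20 under the covariate. Ugt8a, which makes the myelin lipid galactosylceramide, ran from 41.4 to 57.4 CPM in Control and from 21.6 to 39.8 CPM in MS_EC12, lowest in replicates 1 and 6. It fell by 0.74 (SE 0.16, adjusted p = 0.0197), and by 0.82 in the 17 libraries (adjusted p = 0.0377), and had −0.13 with the GC offset (adjusted p = 0.658). Olig2, the lineage factor of oligodendrocytes, rose by 0.58 (SE 0.12, adjusted p = 0.0181), with 0.36 under the covariate (adjusted p = 0.143). In astrocyte markers as a whole 6 of 20 were higher and 2 lower, and in oligodendrocyte markers 2 of 20 were higher and 3 lower. These are 40% and 25% called, against 14.1% of all genes. With the covariate 0 of either list were called, where 0.239% of all genes were. The astrocyte median was 0.15 without a GC term and 0.09 with the covariate. The oligodendrocyte median was 0.13 without a GC term, −0.12 with the covariate and −0.21 in the 17 libraries. Without MS_EC12 replicate 6, Aqp4, Mlc1, Ugt8a and Olig2 had adjusted p of 0.11, 0.0657, 0.0679 and 0.0657.

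Slc7a11, the cystine and glutamate exchanger, had Control values of 50.6 to 53.9 CPM and MS_EC12 values of 15.3 to 39.1 CPM, without overlap. It fell by 0.93 (SE 0.18, adjusted p = 0.0181) and by 0.68 in the 17 libraries (adjusted p = 0.00454), with −0.51 under the covariate (adjusted p = 0.0967). Slc38a3, a glutamine transporter of astrocytes, ran from 69.3 to 89.6 CPM in Control and from 85.0 to 149 CPM in MS_EC12, with replicates 6 and 1 highest at 149 and 138 CPM. It rose by 0.59 (SE 0.14, adjusted p = 0.0227) and by 0.70 in the 17 libraries (adjusted p = 0.0373), and the covariate gave 0.55 (adjusted p = 0.124). MS_EC12 was also higher than MS by 0.74 (adjusted p = 0.0360). Slc5a3, the myo-inositol transporter, which overlaps Mrps6, fell by 0.77 (SE 0.14, adjusted p = 0.0158) and by 0.55 in the 17 libraries (adjusted p = 0.0219). The calls of Slc7a11 and Slc5a3 without a GC term were lost when Control replicate 5 or MS_EC12 replicate 6 was left out (adjusted p at most 0.0530). Slc38a3 lost its call also without Control replicate 1 (at most 0.0792).

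Of 30 monoamine and neuropeptide receptor genes of social behaviour 3 were called higher and 4 lower (23.3%, against 14.1% of all genes), and 0 with the covariate, where 0.239% of all genes were called. Oxtr, the oxytocin receptor, ran from 8.73 to 11.8 CPM in Control and from 6.55 to 10.3 CPM in MS_EC12, at −0.30 on the log2 scale (SE 0.11, adjusted p = 0.0680) and −0.21 with the covariate (adjusted p = 0.550). Bdnf, the neurotrophin gene, had −0.39 (SE 0.16, adjusted p = 0.0732) and −0.05 with the covariate (adjusted p = 0.887). Its MS_EC12 replicates 1 and 2, at 26.4 and 25.7 CPM, lay inside the Control range of 23.4 to 30.2 CPM, and replicates 3 to 6 lay below it at 12.8 to 21.5 CPM. Pdgfb, a growth factor gene, was lower than Control in MS (−0.58, adjusted p = 0.0471) and stood at −0.03 in MS_EC12 (adjusted p = 0.833), with MS_EC12 higher than MS by 0.54 (adjusted p = 0.0360). Lrch4, a leucine-rich repeat protein, was higher in MS_EC12 (1.57, SE 0.38, adjusted p = 0.0256) and in MS (2.14, adjusted p = 0.0251), at 0.599 to 1.68 CPM in Control and 1.21 to 5.18 CPM in MS_EC12, with an adjusted p of 0.0657 without MS_EC12 replicate 6. Usp43, a deubiquitinase, was higher in MS_EC12 (0.44, SE 0.12, adjusted p = 0.0338) and in Control_EC12 (0.76, adjusted p = 0.00571), with 0.0813 in MS_EC12 without MS_EC12 replicate 3. With the covariate Lrch4 had 1.82 (adjusted p = 0.0701) and Usp43 0.41 (adjusted p = 0.225). The comparisons against Control share its libraries.

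Over the other comparisons of the series, with no GC term, 6 genes were called in MS against Control (0.0326%), 4 in Control_EC12 against Control (0.0218%), 30 in MS_EC12 against MS (0.163%) and 48 in MS_EC12 against Control_EC12 (0.261%). Of the 25 genes called in all 6 fits, 2 were called in MS against Control, 0 in Control_EC12 against Control, 3 in MS_EC12 against MS and 7 in MS_EC12 against Control_EC12. These counts do not test whether the comparisons differ. GC slopes above 0 were present in 1 of 6 MS libraries and 2 of 6 Control_EC12 libraries, against 4 of 6 in MS_EC12. They were MS replicate 3 (0.280), Control_EC12 replicates 3 and 4 (0.445 and 0.0934) and MS_EC12 replicates 3 to 6. Replicate numbers 3 and 4 thus recur among them, and whether the number bears on the slope was not tested.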

How the data were processed

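RNA from prefrontal cortex was extracted with ISOGEN II and made into TruSeq Stranded mRNA libraries, per the labels' protocols. The submitters' processing notes name mm10, DESeq2, StringTie (2.1.3b) and HISAT2 (2.1.0), and also Trimmomatic (0.38) and FastQC (0.11.7), without saying what each was used for. How reads were counted, and whether by strand, is not stated. The table the authors deposited holds unnormalized read counts for 45777 genes and, per the file headers, TPM values. Results rest on the counts, and the deposited TPM values served 1 alternative (limma 3.58.1 on log2(TPM + 1)).

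After removal of low counts (filterByExpr, minimum count 10, minimum total 15), 18380 genes were tested with the quasi-likelihood test of edgeR 4.0.16 (R 4.3.3), with TMM scaling and 1 coefficient per group over all 24 libraries. P-values are 2-sided and Benjamini-Hochberg adjusted over these genes, and a gene was called below 0.05. The log2 CPM used for slopes had a prior count of 2. Transcript GC content and length came from the GENCODE M21 transcripts for 92.7% of the tested genes. Symbols were matched to RefSeq on GRCm38.p6 (99.8% of genes), which also gave coordinates. The GC offset removed a lowess curve (span 0.3) of each library's deviations on GC content. The fitting code was tested on simulated data. No pair of replicates agreed within sampling noise (smallest chi-square per gene 5.03). Plin4, Slc5a3 and Zbtb11 overlap another protein-coding gene, and reads of near-identical histone, haemoglobin and class I genes may have been split.

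Alternatives were DESeq2 1.42.0, its size factors, no filter, the 12 libraries alone, a replicate block, GC and length terms, single libraries left out and, chosen after seeing the data, the 17 libraries with the slope as covariate. Named genes were those of smallest p in each direction with and without the GC offset, those called in all 6 fits, up to 6 members of each list, those of smallest interaction p and a set of candidates. Genes and lists were chosen with earlier results of these data known.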

Additional observations from a re-analysis of the deposited data

Results flagged for a closer look

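For each of 84 genes, the highest or lowest of the 6 libraries of a group was checked for standing far from the other 5. The GC slope, the length slope and the mitochondrial share of counts were checked in the same way. Of 174 groups of 6 values checked, 16 held such a library, where chance gives about 1 in 20 (5%). In MS_EC12, 9 of these were replicate 6, with the other libraries' median beside each value. Replicate 6 had 642.1 CPM of Ttr (2.32), 19.15 CPM of Oxt (0.426), 3.751 CPM of Sostdc1 (0.826), 5.666 CPM of Trpv4 (1.97) and 1322 CPM of ND3 (806). It also had 1859 CPM of Cst3, which encodes cystatin C (1273), 114.9 CPM of Abhd4 (79.5), 80.02 CPM of Npc2, a lysosomal cholesterol carrier (63.5), and 44.24 CPM of H2bc4 (33.7).

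The other far libraries of MS_EC12 were replicate 1 for Fkbp5, at 51.44 CPM (42.5), and replicate 3 for Cbfa2t3, at 36.56 CPM (25.3). In Control they were replicate 4 for Plin4, at 4.507 CPM (2.47), replicate 2 for Chchd2, at 151.3 CPM (143), replicate 1 for Egr2, at 13.46 CPM (18.2), replicate 3 for Slc38a3, at 89.6 CPM (70.6), and replicate 1 for Oxt, at 0.9525 CPM (0.112).

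The difference of MS_EC12 from Control was compared with the sum of the single differences by edgeR's quasi-likelihood test of the interaction. The log2 departure was 0.8923 in Bhlhe40, at an adjusted p of 0.0379. In Banp it was 0.8368, at an adjusted p of 0.0152.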

How the results depend on the processing

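For MS_EC12 against Control, calls numbered 339 with no filter, 5939 with the replicate block, 44 with the slope as covariate, 193 in the 17 libraries of GC slope below 0, 11 there with the covariate, 4439 in DESeq2 and 4046 in limma on log2(TPM + 1), against 2594. Leaving out single libraries gave 9 to 6544. The other comparisons moved too. MS against Control (6) had 10 with the block, 19 with the GC offset, 62 with the covariate, 34 with offset and block, 19 with the GC and length offset, 83 in the 17 libraries, 0 there with the covariate and 22 in DESeq2. Control_EC12 against Control (4) had, in that order, 33, 59, 141, 134, 53, 87, 33 and 74, and 2 in limma. MS_EC12 against MS (30) had 1 with no filter, 3809 with the block, 3 with the covariate, 854 with offset and block, 14 in the 17 libraries, 2 there with the covariate, 1894 in DESeq2 and 161 in limma. MS_EC12 against Control_EC12 (48) had 232 with the block, 79 with the offset, 315 with both, 130 with the GC and length offset, 31 in the 17 libraries, 21 there with the covariate, 177 in DESeq2 and 16 in limma. The interaction (2) had 1 with no filter, 9 with the block, 7 with the covariate, 14 with offset and block, 1 in the 17 libraries with the covariate, 19 in DESeq2 and 0 in limma. The causes were not tested.

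The highest-minus-lowest GC decile difference of 0.658 was −0.098 in the 17 libraries. The GC slope difference ran from 0.273 to 0.435 with single libraries left out, and its exact permutation p was 0.0303 without MS_EC12 replicate 1 or 2. Oxt reversed to −0.34 in the 17 libraries with the covariate. Over the 84 genes, 1364 values kept their side of the threshold, 591 lost the call and 57 gained one. The 1364 include values that changed sign while called in neither fit. Bdnf, for example, had −0.39 without a GC term and 0.08 with the GC offset. Medians of lists moved beyond the spread between libraries in 124 cases and stayed within it in 836.

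Replicate numbers did not pair the Control and MS_EC12 libraries: same-numbered libraries had correlations of −0.081 to 0.215, and 1 of 6 correlated best with its own number. Pairing by number in the other groups was not tested. The smallest group of a fit was 2 MS_EC12 libraries, in the 17.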
